A study of Mus musculus with 11 samples.

Results

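The genes described here write, erase or read repressive chromatin marks in blood stem and progenitor cells: the DNA methyltransferases Dnmt1, Dnmt3a and Dnmt3b, the methylcytosine dioxygenases Tet1, Tet2 and Tet3, and the Polycomb group genes Ezh1, Ezh2, Bmi1 and Asxl1. They were taken by gene symbol from the deposited signal table of 9 arrays, with the transcript cluster of highest mean signal used where a gene had several. A transcript cluster is the array's set of probes along one gene. All 10 were found, among 22113 symbols in all, and they hold 13 of the 28944 transcript clusters tested. The study measured RNA in LSK cells, bone marrow cells that lack lineage markers and carry Sca-1 and Kit on their surface, which include the stem cells and early progenitors. Its title concerns how the transcription factor Klf5 controls homing to the bone marrow through Rab5 and integrins, and the chromatin regulators above are not named there. The knockout group (Klf5 knockout, with a Cre that the labels write MxlCre) had 4 arrays in the main table, and the wild-type group (wild-type Klf5, with the same Cre) had 5. All mice were of the C57BL/6 strain. Mx1-Cre is switched on by interferon in blood cells and also in other tissues, and the age of the mice, the way Cre was induced, and the number of animals behind each array are not given in the sources used here. No label states that the arrays come from separate animals. Every p-value below sets a difference only against the spread among these samples, and part of that spread may be technical.

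DNA methylation is copied to the new strand at replication by DNMT1 and set on unmethylated DNA by DNMT3A and DNMT3B, while TET enzymes oxidise methylcytosine and so start its removal. Polycomb repressive complex 2, with EZH1 or EZH2 as its catalytic subunit, methylates H3K27, and Polycomb repressive complex 1, to which BMI1 belongs, ubiquitinates H2A. In blood, loss of Dnmt3a or Tet2 expands stem cells at the cost of differentiation, Bmi1 is needed for stem cell self-renewal, and DNMT3A, TET2 and ASXL1 are among the genes most often mutated in human clonal haematopoiesis.

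No member passed the test for a difference between knockout and wild-type LSK cells. With limma and Benjamini-Hochberg adjustment over all transcript clusters, 0 of 10 had an adjusted p under 0.05, against 0% of all 28944 clusters, of which none had an adjusted p below 0.907. Without adjustment 1 member (Dnmt3b, lower in knockout) had a p under 0.05, beside 4.08% of all clusters in either direction, 1.45% higher and 2.63% lower in knockout. Of the 10 differences 4 were above 0 and 6 below 0, with a median of -0.012 on the log2 scale (-0.079 without wild-type replicate 4 and 0.074 without wild-type replicate 2) beside -0.019 for all clusters, of which 55.9% lay below 0. The knockout and wild-type arrays overlapped in every member, whereas 0.985% of all clusters had groups that did not overlap. The 95% interval of the difference lay within 2-fold for 9 members, all but Tet1, and within 0.5 log2 units for 7, all but Tet1, Ezh2 and Asxl1.

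**Figure D1:**
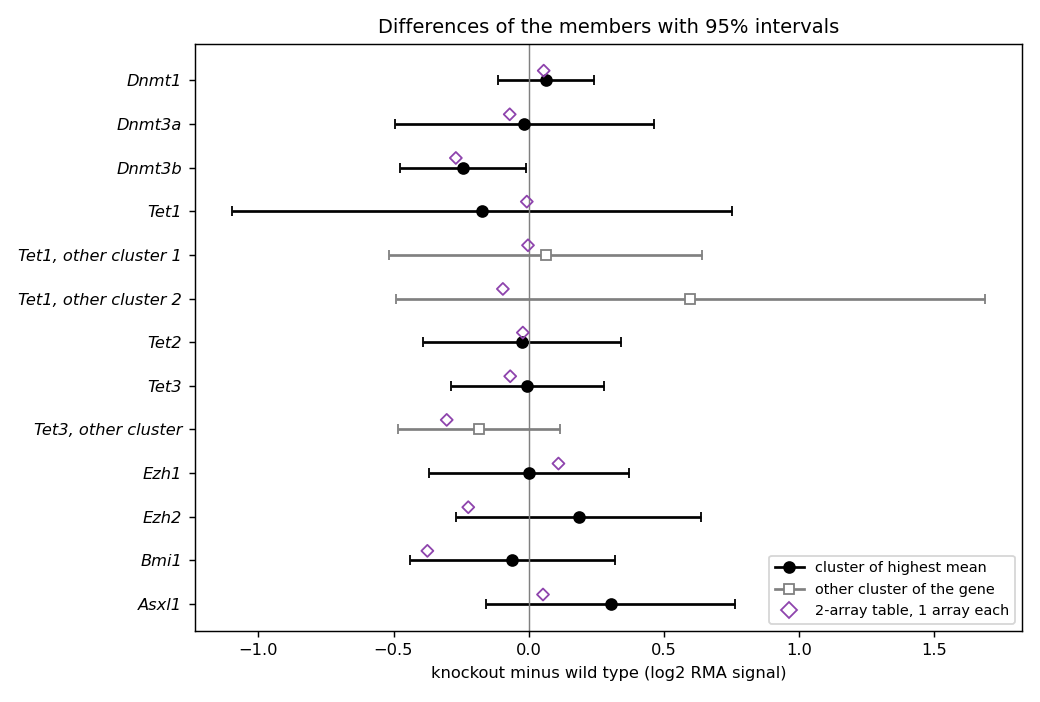
Knockout minus wild-type difference of each member in log2 RMA signal, with its 95% interval from limma (4 knockout and 5 wild-type arrays), and the difference between the arrays of the separate table of 2 arrays beside it. Grey squares are the other clusters of Tet1 and Tet3. Dnmt3b is the member whose interval lies below 0, at -0.24, and Tet1 has the widest interval.

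Klf5 itself was the check on the labels. It read 6.72, 6.58, 6.76 and 6.69 (log2 RMA signal) on knockout replicates 2 to 5, against 6.77, 6.98, 6.94, 6.98 and 6.77 on wild-type replicates 2 to 6. Every knockout array was below every wild-type array, but the difference was small, -0.20 (95% interval -0.37 to -0.027, limma adjusted p = 0.916). Whether its probes fall inside the deleted stretch is not known here, so this is a limited check. The 9 LSK markers read (Kit, Ly6a, Cd34, Flt3, Slamf1, Procr, Meis1, Mecom and Hlf) all lay above the negative-control median on every array, as did the median of all clusters. The mean of the LSK markers ranged from 8.15 to 8.998 on knockout arrays and from 8.09 to 8.86 on wild-type arrays. The arrays also differed in sex-linked signal, and unevenly by genotype. Xist read 9.59 to 11.12 on all 4 knockout arrays, but of the 5 wild-type arrays it was high only on replicates 5 and 6. Genotype and sex-linked signal can therefore not be fully told apart here. Xist was high with a low mean of the Y-linked genes on knockout replicates 3 and 4 and wild-type replicate 5, both were raised on knockout replicates 2 and 5 and wild-type replicate 6, and the Y-linked genes were high with Xist at 4.74 to 5.47 on wild-type replicates 2, 3 and 4. Markers of other blood cells varied too. The mean of 8 B cell markers ranged from 5.50 to 6.05 on knockout arrays and from 5.57 to 6.78 on wild-type arrays, and that of 8 erythroid markers from 6.49 to 7.04 on knockout and from 6.14 to 7.09 on wild-type arrays. The mean of 8 neutrophil and monocyte markers ranged from 6.30 to 7.39 on knockout arrays and from 6.20 to 6.64 on wild-type arrays. The part of these levels in the members' values was not tested. These are bulk cell populations, so fewer cells of a type and less RNA per cell cannot be told apart.

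The promoters of the members are shown because Klf5 binds GC-rich letters of the CACCC and GC box kind, and 3 are printed: that of Dnmt3b, the member with the smallest p, that of Bmi1, with many matches, and that of Ezh2, with none. The sequences are from RefSeq on build GRCm38.p6. They are the 250 bases before the start of Dnmt3b (chr2:153649199-153649448, plus strand), Bmi1 (chr2:18676768-18677017, plus strand) and Ezh2 (chr6:47595031-47595280, minus strand), written along the strand of the gene with matches of the KLF consensus CCNCNCCC, on either strand, in capitals.
Dnmt3b: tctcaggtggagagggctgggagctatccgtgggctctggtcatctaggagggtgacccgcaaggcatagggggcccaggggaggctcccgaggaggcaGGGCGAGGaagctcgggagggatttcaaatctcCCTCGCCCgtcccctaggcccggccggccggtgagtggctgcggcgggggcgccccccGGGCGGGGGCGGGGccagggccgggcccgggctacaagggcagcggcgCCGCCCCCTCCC
Bmi1: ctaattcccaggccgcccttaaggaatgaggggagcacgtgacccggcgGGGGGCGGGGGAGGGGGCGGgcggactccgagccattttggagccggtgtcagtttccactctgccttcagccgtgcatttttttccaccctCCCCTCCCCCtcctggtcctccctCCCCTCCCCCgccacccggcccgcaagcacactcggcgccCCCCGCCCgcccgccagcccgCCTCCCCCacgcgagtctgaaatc
Ezh2: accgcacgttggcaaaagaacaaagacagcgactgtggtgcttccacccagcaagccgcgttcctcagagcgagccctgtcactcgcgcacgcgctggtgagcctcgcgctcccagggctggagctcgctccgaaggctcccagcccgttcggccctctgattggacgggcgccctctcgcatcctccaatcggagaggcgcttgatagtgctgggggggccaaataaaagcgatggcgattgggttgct
In the full 300-base windows, which run 50 bases past the start, Dnmt3b held 9 matches in 4 stretches and Bmi1 11 in 5. Of the 14 windows of the 10 members, 12 held at least 1 match, beside 49.5% of all 32851 windows in the table. A pair of these, both of Dnmt3a, overlap and share the same match. Ezh2 was the member with no match in any window. The consensus is itself rich in C, and GC content was 51.3% to 82.3% in the member windows, beside a median of 52.7%. The part of GC content in the count was not tested. All but 1 of the 14 windows, a Dnmt1 window with 2 CpG dinucleotides, held more CpG than the median of all windows, 7, and the highest count, 57, was that of Tet2. The letters TTTCCCGC or TTTGGCGC of the E2F family, read on both strands, occurred after the start in the windows of Dnmt1 and Ezh2 and in none of the other members, beside 1.565% of all windows, and overlapped no KLF match. These are matches of letters in a fixed window and were not tested for binding.

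The level of each member was read against the negative-control probes of the same array, and levels of different genes are not set against each other because their probes differ. All 10 members lay above the negative-control median (5.27 to 5.62) on all 9 arrays. That limit was weak, since the median of all clusters (5.93 to 6.03) also lay above it on every array. Only Dnmt1 and Ezh2 lay above the 95th percentile of the negative controls (8.76 to 9.34) on all 9. That percentile was strict, since no more than 5.97% to 9.74% of all transcript clusters exceeded it on an array. Tet1 exceeded it on 2 arrays and the other 7 members on none. The part of background signal in the differences of those 7 was not tested.

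**Figure D2:**
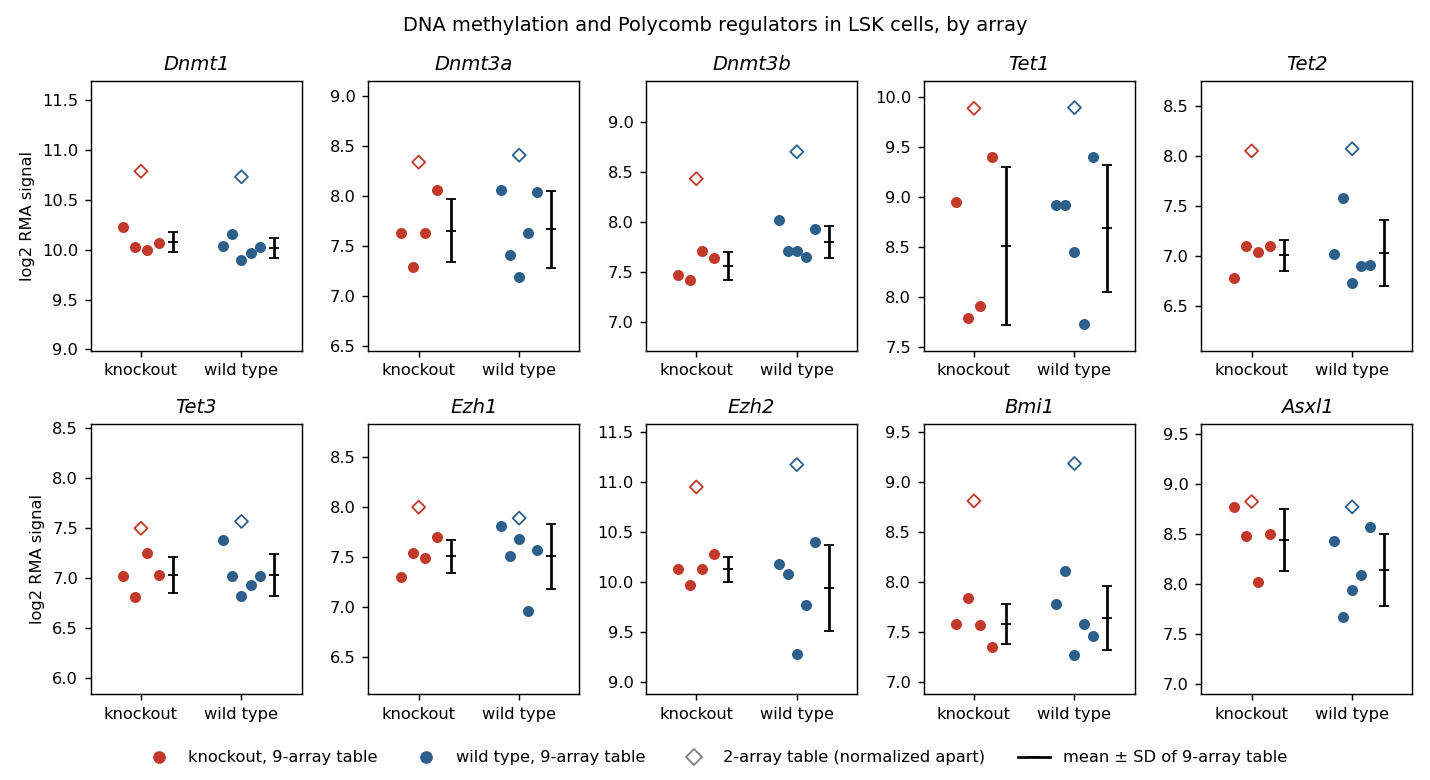
Log2 RMA signal of the 10 members on each knockout array (left) and each wild-type array (right) with the group means and SDs. Open diamonds are the arrays of the separate table, which are not on the same scale. The groups of the main table overlap in every panel.

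Dnmt1, which maintains methylation after replication, was the steadiest member. It read 10.22, 10.03, 9.99 and 10.07 on knockout replicates 2 to 5, against 10.04, 10.15, 9.89, 9.96 and 10.03 on wild-type replicates 2 to 6. Its means were 10.08 ± 0.10 in knockout and 10.01 ± 0.10 in wild-type cells (SD, n = 4 and 5), a difference of 0.064 with a 95% interval of -0.11 to 0.24 (limma adjusted p = 0.924). Its residual SD of 0.099 was lower than that of all but 14.6% of clusters.

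Dnmt3b, a de novo methyltransferase, had the smallest p of the members. It read 7.46, 7.42, 7.71 and 7.64 on knockout arrays, against 8.01, 7.71, 7.71, 7.64 and 7.93 on wild-type arrays. Knockout replicates 2, 3 and 5 were below every wild-type array, the last by little (7.6406 against 7.6428 on wild-type replicate 5), and knockout replicate 4 lay within the wild-type range. The means were 7.56 ± 0.14 in knockout and 7.80 ± 0.16 in wild-type cells, a difference of -0.24 (0.845-fold, 95% interval -0.47 to -0.012), with a limma unadjusted p of 0.0414 and an adjusted p of 0.916. Knockout replicate 4 and wild-type replicates 3 and 4 held the identical value 7.7071, and exact ties of this kind occurred in 5 of the 10 members and in 57.5% of all clusters. The unadjusted limma p was above 0.05 without any of 4 arrays: it was 0.0987 without knockout replicate 2, 0.113 without knockout replicate 3, 0.0913 without wild-type replicate 2 and 0.0887 without wild-type replicate 6, with the difference at -0.21, -0.20, -0.19 and -0.21 in turn. Dnmt3b lies on chromosome 2 near Asxl1, with 2 protein-coding genes between them in GRCm38.p6.

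Dnmt3a, the other de novo enzyme, varied between arrays with no shift between groups. It read 7.62, 7.28, 7.63 and 8.05 on knockout arrays, against 8.06, 7.40, 7.19, 7.63 and 8.04 on wild-type arrays. Both groups spanned nearly the same range, and the difference was -0.017 (95% interval -0.50 to 0.46, limma adjusted p = 0.993).

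Tet1 had the widest spread of the members. The Tet1 cluster of highest mean read 8.95, 7.78, 7.91 and 9.40 on knockout arrays, against 8.92, 8.92, 8.45, 7.73 and 9.40 on wild-type arrays, a span of 1.68 log2 units. Its residual SD of 0.704 was above that of 97.8% of all clusters. The difference was -0.17 (95% interval -1.10 to 0.75, limma adjusted p = 0.958), an interval that runs from 0.468-fold to 1.68-fold. The other clusters of Tet1 differed by 0.063 (95% interval -0.52 to 0.64) and 0.60 (-0.49 to 1.69), and their signs were the opposite of the first. On the arrays of the separate table the cluster of highest mean read 9.89 in knockout and 9.89 in wild-type cells. That cluster and the one with the difference of 0.063 were lowest on knockout replicates 3 and 4 and wild-type replicate 5, the 3 arrays with high Xist and low Y-linked signal (Xist 11.05, 11.12 and 11.06, Y-linked mean 4.12, 4.22 and 4.42). The cluster with the difference of 0.60 was instead lowest on wild-type replicates 5 and 4, at 6.28 and 6.50, and read 7.94 on knockout replicate 4. Knockout replicates 3 and 4 and wild-type replicate 5 also had the lowest LSK marker means, 8.15, 8.42 and 8.09, against 8.44 or more on the other 6. Knockout replicate 3 had the highest mean of neutrophil and monocyte markers, 7.39. With Xist and Y-linked levels as covariates the Tet1 difference was -0.043, and without the 3 arrays that carry both signals it was -0.66. That last fit kept knockout replicates 3 and 4, both with high Xist and low Y-linked signal. Of the wild-type arrays it kept, only replicate 5 had that signal, so genotype and sex-linked signal were even harder to tell apart there. The part of these levels in the Tet1 values was not tested further.

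**Figure D3:**
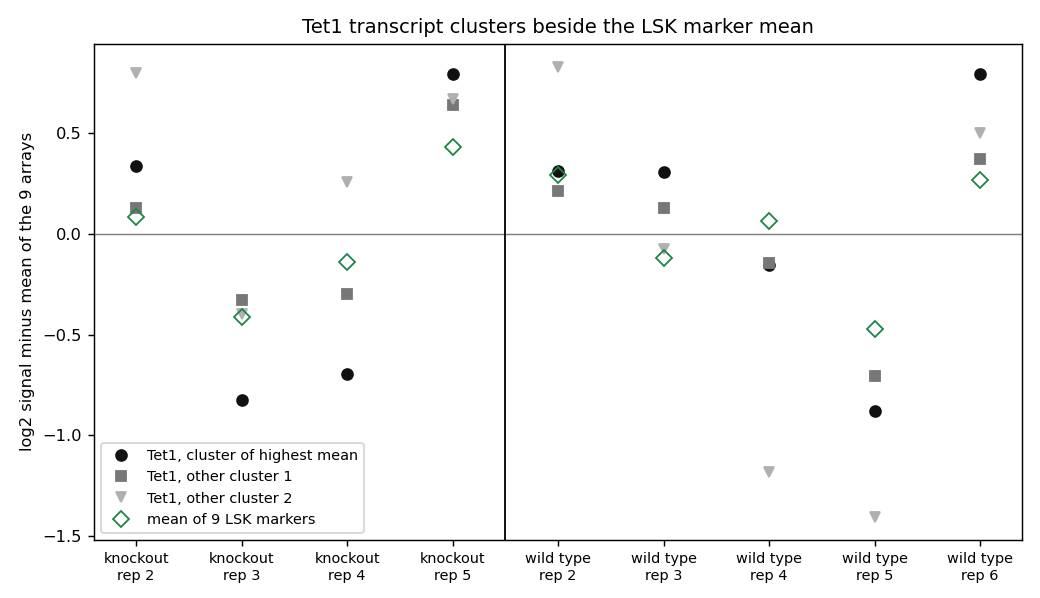
Deviation of the 3 Tet1 transcript clusters from their mean over the 9 arrays (log2 RMA signal), knockout arrays left of wild-type arrays, with the mean of 9 LSK markers as open diamonds. The clusters were lowest together on wild-type replicate 5, and the largest spread was that of the cluster with the difference of 0.60.

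Tet2 and Tet3, the other dioxygenases of the family, had differences close to 0. Tet2 read 6.78, 7.10, 7.03 and 7.10 on knockout arrays, against 7.02, 7.58, 6.73, 6.89 and 6.91 on wild-type arrays, where replicate 3 was the highest and replicate 4 the lowest of all 9. Its difference was -0.024 (95% interval -0.39 to 0.34, limma adjusted p = 0.985). Tet3 read 7.02, 6.82, 7.25 and 7.03 on knockout arrays, against 7.38, 7.02, 6.82, 6.93 and 7.02 on wild-type arrays. Its difference was -0.0059 (-0.29 to 0.28, adjusted p = 0.996), and that of its other cluster was -0.18 (-0.48 to 0.11).

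Ezh2, the catalytic subunit of Polycomb repressive complex 2 that is most active in dividing cells, was spread mainly on the wild-type side. It read 10.13, 9.97, 10.13 and 10.28 on knockout arrays, against 10.18, 10.08, 9.28, 9.77 and 10.39 on wild-type arrays. The means were 10.13 ± 0.13 in knockout and 9.94 ± 0.43 in wild-type cells, a difference of 0.185 (95% interval -0.27 to 0.64, limma adjusted p = 0.919). Without wild-type replicate 4, the lowest of the 9, the difference was 0.020. Ezh1, the paralogue found more in resting cells, read 7.30, 7.54, 7.50 and 7.70 on knockout arrays, against 7.82, 7.51, 7.69, 6.96 and 7.57 on wild-type arrays. Its difference was 0.0016 (-0.37 to 0.37, adjusted p = 0.999), with the lowest and the highest array both wild-type.

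Bmi1, the Polycomb repressive complex 1 subunit required for stem cell self-renewal, read 7.57, 7.83, 7.57 and 7.34 on knockout arrays, against 7.78, 8.11, 7.27, 7.57 and 7.46 on wild-type arrays. The difference was -0.060 (95% interval -0.44 to 0.32, limma adjusted p = 0.967). Asxl1, a scaffold of the H2A deubiquitinase that also acts with Polycomb repressive complex 2, had the largest positive difference of the members. It read 8.77, 8.48, 8.02 and 8.50 on knockout arrays, against 8.43, 7.67, 7.94, 8.09 and 8.57 on wild-type arrays, so that 3 of the 4 knockout arrays were above 4 of the 5 wild-type ones. Its means were 8.44 ± 0.31 in knockout and 8.14 ± 0.36 in wild-type cells, a difference of 0.30 (1.23-fold, 95% interval -0.16 to 0.76), with an unadjusted p of 0.172 and an adjusted p of 0.916 in limma. Leaving out single arrays moved it between 0.19 (without wild-type replicate 3) and 0.44 (without knockout replicate 4), and it was 0.11 with array weights and 0.15 with sex-linked covariates.

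Some arrays were high or low in most members at once. Averaged over the 10 members, the deviation from the group mean was 0.16 on knockout replicate 5, 0.22 on wild-type replicate 2 and 0.19 on wild-type replicate 6, against -0.25 on wild-type replicate 4 and -0.23 on wild-type replicate 5. On wild-type replicate 2, 9 members were above the wild-type mean, while 0 were above it on wild-type replicate 5 and 1 on wild-type replicate 4. Wild-type replicate 4 was the lowest array for 5 members, Dnmt1, Dnmt3a, Tet2, Ezh2 and Bmi1. The 3 arrays where the members were high had the highest means of the LSK markers, 8.998, 8.86 and 8.83, and of the erythroid markers, 7.04, 6.82 and 7.09, and wild-type replicate 5 had the lowest LSK mean, 8.09. The part of these levels in the members' shift was not tested. The mean over all transcript clusters deviated by no more than 0.0077 on any array. Of the 10 members 8 had a residual SD above the median of all clusters, 0.178, but among the 1001 clusters nearest in level only 5 (Dnmt3a, Tet1, Tet2, Ezh2 and Asxl1) were above the median.

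**Figure D4:**
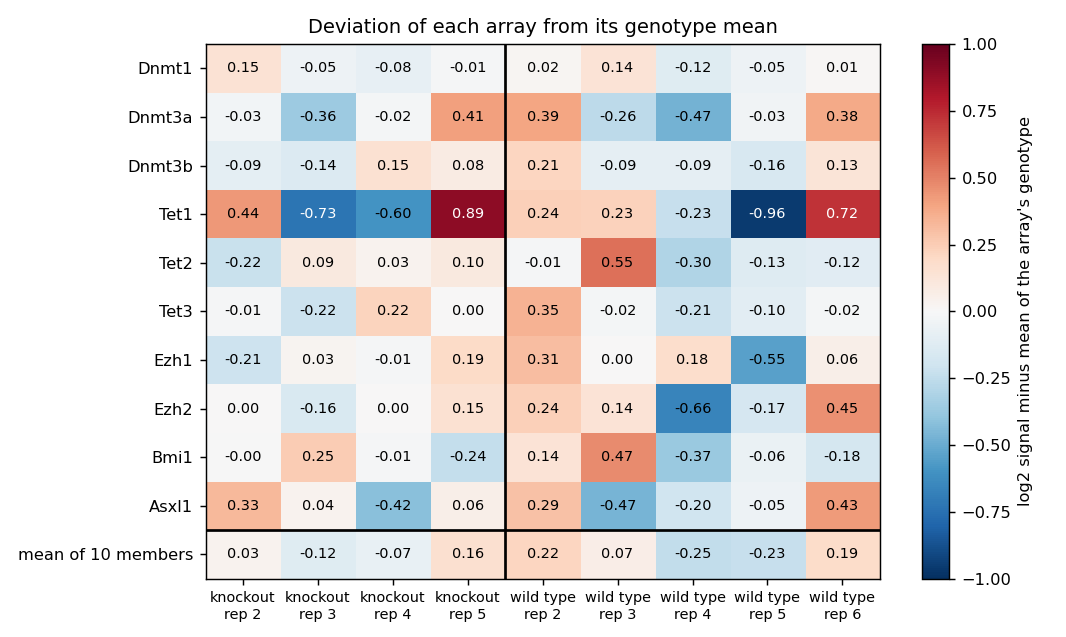
Deviation of each member from its group mean on each array (log2 RMA signal), knockout arrays left of wild-type arrays. Wild-type replicates 4 and 5 are low and wild-type replicate 2 is high in most members, and Tet1 holds the largest deviations.

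A separate table of 1 knockout and 1 wild-type array was normalized on its own, and its values carry no test. There Bmi1 read 8.81 in knockout and 9.18 in wild-type cells, Dnmt3b 8.43 in knockout and 8.70 in wild-type cells, and Ezh2 10.95 in knockout and 11.17 in wild-type cells. Asxl1 read 8.82 in knockout and 8.77 in wild-type cells, Dnmt1 10.78 in knockout and 10.73 in wild-type cells, and Ezh1 8.0012 in knockout and 7.89 in wild-type cells. For Dnmt3a the signal was 8.34 in knockout and 8.41 in wild-type cells, for Tet2 8.05 in knockout and 8.07 in wild-type cells, and for Tet3 7.50 in knockout and 7.57 in wild-type cells. These levels belong to another normalization and are not set against those of the main table. The sign of the difference was the same as in the main table for 9 of 10 members, all but Ezh2, beside 44.6% of all clusters. Of those 9, Ezh1, Tet3, Dnmt3a and Tet2 had main differences within 0.024 of 0, and their sign turned in 5 to 7 of the other fits each. The sign also turned for Bmi1 in 5 alternatives, for Dnmt1 in 1, and for Tet1 in 6, counting its other clusters. The Tet1 difference in the pair was only -0.0071. Across all clusters the difference of this pair was most like that of knockout replicate 5 and wild-type replicate 6 (Pearson r = 0.309, next highest 0.168). That correlation is across clusters, which are not independent, and whether these arrays hold separate samples was not tested.

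Genes that work with the members also did not pass the test. Of the 12 DNA methylation cofactors and readers 8 were above 0 and 4 below, with a median of 0.019, or -0.025 without wild-type replicate 5. Zbtb33, a methyl-CpG binding repressor, read 6.54, 7.12, 7.12 and 7.12 on knockout arrays, against 7.99, 7.02, 7.06, 7.99 and 7.15 on wild-type arrays, a difference of -0.47. Mbd2, which binds methylated CpG, read 9.45, 10.15, 10.15 and 10.15 on knockout arrays, against 10.20, 10.15, 10.18, 10.29 and 10.12 on wild-type arrays, and its difference was -0.22, or -0.041 without knockout replicate 2. Zbtb4, a zinc-finger protein that binds methylated DNA, differed by -0.10 (-0.038 without knockout replicate 3). Of the 11 genes of DNA demethylation and 2-oxoglutarate supply 5 were above 0 and 6 below, with a median of -0.061 (0.025 without wild-type replicate 3), and Idh2, which makes the TET cofactor 2-oxoglutarate in mitochondria, differed by -0.37 (-0.21 without knockout replicate 2). Gadd45a, linked to repair-based demethylation, differed by -0.28 (-0.14 without knockout replicate 2), and Apobec2, a member of the cytidine deaminase family, by -0.15 (-0.043 without wild-type replicate 5).

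Among Polycomb complexes, 4 of the 8 measured partners of Polycomb repressive complex 2 (Rbbp4 was not matched by symbol) were above 0 and 4 below, with a median of 0.044 that was -0.043 without wild-type replicate 5 and 0.12 without knockout replicate 2. Suz12, a core subunit that the catalytic subunits need, read 9.46, 9.31, 9.20 and 9.11 on knockout arrays, against 9.11, 8.87, 8.63, 9.02 and 9.19 on wild-type arrays. Knockout replicates 2, 3 and 4 were above every wild-type array, and knockout replicate 5 tied with the wild-type replicate 2 value at 9.11, with a difference of 0.30 (95% interval 0.025 to 0.58, unadjusted p = 0.0358, adjusted p = 0.916 in limma) while the pair of arrays in the separate table differed by -0.11. Phf19 and Mtf2, which recruit the complex to its sites, differed by 0.21 (95% interval -0.14 to 0.56, and 0.028 without knockout replicate 4) and 0.16 (-0.15 to 0.46, and 0.076 without wild-type replicate 4). For Polycomb repressive complex 1 subunits 11 of 18 measured (Cbx6 was not matched) were above 0 and 7 below, with a median of 0.048, or -0.015 without wild-type replicate 4. Pcgf3, a subunit of a variant complex, differed by 0.35 and Ring1, a ubiquitin ligase subunit, by -0.22, and without knockout replicate 2 these were 0.17 and -0.098. Rybp, a subunit of the variant complexes, differed by 0.25 (95% interval -0.15 to 0.65, and 0.12 without knockout replicate 2). Among Asxl partners and H2A deubiquitination genes 7 of 9 were above 0 and 2 below, with a median of 0.058 (-0.017 without knockout replicate 5), and Asxl2, a paralogue of Asxl1, differed by 0.30 (95% interval -0.19 to 0.78, and 0.10 without wild-type replicate 5). Usp16, an H2A deubiquitinase, differed by 0.18 (-0.27 to 0.62, and 0.073 without wild-type replicate 4) and Kdm1b, a histone demethylase, by 0.11 (-0.092 to 0.32, and 0.042 without knockout replicate 2).

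The H3K27 demethylases Kdm6a and Kdm6b, which remove the Polycomb mark, varied widely between arrays. Kdm6a, which escapes X inactivation, read 7.30, 8.39, 8.32 and 8.04 on knockout arrays, against 7.46, 7.88, 7.25, 8.12 and 7.86 on wild-type arrays, and its highest 3 values were on the arrays with high Xist and low Y-linked signal. Its difference was 0.30 (0.54 without knockout replicate 2). Kdm6b read 6.28, 7.91, 8.24 and 7.30 on knockout arrays, against 7.78, 8.12, 7.87, 8.48 and 7.22 on wild-type arrays. Its difference of -0.46 was -0.080 without knockout replicate 2, the lowest of the 9 arrays.

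Genes that Polycomb is known to silence gave 2 above 0 and 10 below among 12 measured, beside 55.9% of all clusters below 0. Their median was -0.072, beside -0.019 for all clusters. It was -0.038 with each array centred on its median and -0.11 with Xist and Y-linked levels as covariates. Only 6 of the 12 lay above the negative-control median on all arrays, and 2, Lin28b and Wnt1, lay below it on all. Sox1, a neural transcription factor, read 6.84, 6.57, 6.63 and 6.70 on knockout arrays, against 6.84, 7.14, 6.98, 7.05 and 6.84 on wild-type arrays. Its difference was -0.28 (95% interval -0.49 to -0.081, unadjusted p = 0.0111, adjusted p = 0.916 in limma), with an opposite sign, 0.16, in the separate table. Hand2 and Nkx2-1, transcription factors of other tissues, differed by -0.18 (95% interval -0.38 to 0.015) and -0.11 (-0.30 to 0.081, and -0.059 without wild-type replicate 5). Cdkn2a, the cell cycle inhibitor gene silenced by Bmi1, differed by -0.062 (95% interval -0.22 to 0.10), and was chosen after its value was seen. Its signal was near background, at 5.59 to 5.84, and lay above the negative-control median on 8 of 9 arrays. What that does to its difference was not tested. No gene of any list named above had an adjusted p under 0.05.

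**Figure D5:**
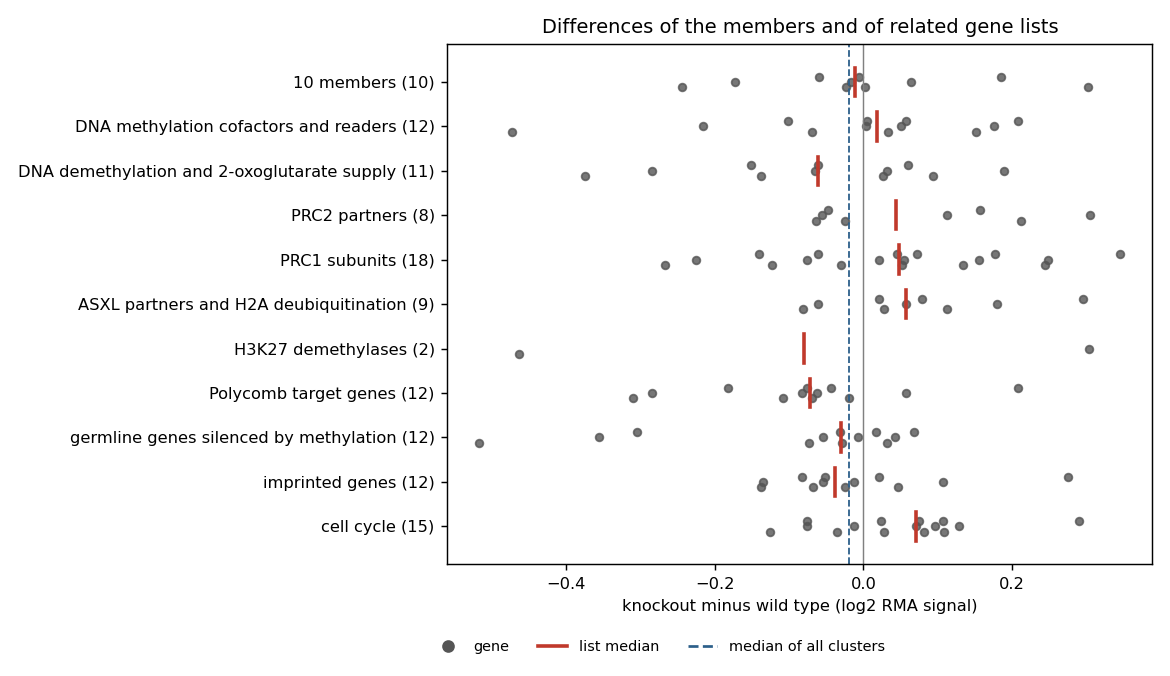
Knockout minus wild-type difference (log2 RMA signal) of each gene of the members and of the lists of related genes, with the list median and the median of all transcript clusters. The number in brackets is how many genes of the list were measured. Each list lies on both sides of 0.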

How the data were processed

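The authors deposited log2 RMA signals of Affymetrix Mouse Gene 1.0 ST arrays as gene-level tables, per the file headers. There are 2 tables, of 9 and 2 arrays, each normalized by itself. The submitters' processing notes name Affymetrix Expression Console without a version. The labels give 5 samples of knockout and 6 of wild type. Each RMA column was matched to a sample by equality with the deposited value table within 5e-05. After 6612 control rows were left out, 28944 transcript clusters entered a two-sided moderated test (lmFit, then eBayes, of limma 3.58.1 under R 4.3.3) on 4 knockout and 5 wild-type arrays, with Benjamini-Hochberg adjustment and a threshold of 0.05. Symbols were updated through RefSeq accessions, where 22114 rows matched and 2463 symbols changed. Background was read from 5222 negative-control rows. Named genes were all members, the 3 genes of smallest p per list described and Kdm6a. Cdkn2a, Lin28b and Wnt1 were named outside this rule. The members, the lists and the tests were chosen with earlier results of these data known. The number of arrays limits the precision, and the median standard error over all clusters was 0.116. The fit was tested on simulated data. Promoter windows came from RefSeq on GRCm38.p6 and figures from matplotlib 3.10.9. Protein sequences were not used here, and 1 planned LSK marker is not reported here and was left out of the marker mean. Alternatives covered normalization, filters, the variance model, array weights, sex-linked covariates, replicate blocks, the value table, all 11 arrays, each array left out and the methods' t-test.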

Additional observations from a re-analysis of the deposited data

Results flagged for a closer look

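Of 78 groups of arrays examined over 39 genes, 6 held an array that lay far from the others of its group by Dixon's test, where chance gives about 3.9 (1 in 20), and none of the 6 was a member. Zbtb33 read 6.5371 on knockout replicate 2, against 7.1158 on the other knockout arrays, and Mbd2 read 9.4532 there, against 10.1492 to 10.1495. Mcm4 read 8.332 on knockout replicate 4, against 8.5783 on the others. Idh2 read 9.5721 and Phf19 5.7832 on wild-type replicate 3, against 8.989 to 9.1272 and 5.9165 to 5.9294 on the other wild-type arrays. Kdm1b read 6.0947 on wild-type replicate 6, against 6.0603 on the others. The remaining arrays of the Zbtb33, Mcm4 and Kdm1b groups were exact ties, which makes any untied array stand out however small its gap.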

How the results depend on the processing

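No transcript cluster passed the adjusted threshold under any of 24 other fits (lowest adjusted p 0.0732 without wild-type replicate 2, limma), and the count at an unadjusted p under 0.05 over all 28944 clusters ranged from 798 to 1850 against 1181. The methods' t-test gave 1150 clusters unadjusted and 0 adjusted, with 1 member. Dnmt3b stayed below 0 in all 23 fits that gave a value, with an unadjusted p under 0.05 in 10. Ezh2 and Asxl1 kept their sign in every fit. With Xist and Y-linked levels as covariates Tet2 was 0.10, Tet3 0.058 and Bmi1 0.087. With array weights Tet2 was 0.031 and Ezh1 -0.082. Centring each array on its median, which moved the median of all clusters to 0.015, gave 0.017 for Dnmt3a, 0.011 for Tet2 and 0.028 for Tet3, and quantile normalization gave -0.032 for Ezh1. The other Tet1 clusters gave 0.063 and 0.60. All 10 members lay above the median of the negative controls on all arrays, against 2 above their 95th percentile. The median of all clusters also lay above the negative-control median on every array, so the first limit was weak. Whether the replicate numbers pair the arrays was not tested. Correlations of same-numbered deviations ran from -0.24 to 0.13 by title and from -0.051 to 0.40 by description. By column name they ran from 0.066 to 0.40. With a replicate block by title number Dnmt3a was 0.077 and Tet1 0.0074, by description number Dnmt3a was 0.081 and Tet3 0.081, and by the column-name number, chosen after seeing the data, Tet2 was 0.11 and Bmi1 0.058. Also chosen after seeing the data, leaving out knockout replicates 2 and 5 and wild-type replicate 6, which hold both Xist and Y-linked signal, gave -4e-06 for Dnmt1, 0.011 for Tet2 and 0.016 for Bmi1, and the planned version with a 95th-percentile limit found no such array. Leaving out knockout replicate 5 and wild-type replicate 6, likewise chosen after seeing the data, gave -0.048 for Ezh1. Leaving out each array in turn gave 0.015 to 0.0985 for Dnmt1, -0.15 to 0.10 for Dnmt3a, -0.29 to -0.19 for Dnmt3b, -0.47 to 0.070 for Tet1, -0.0985 to 0.11 for Tet2, -0.080 to 0.081 for Tet3, -0.14 to 0.078 for Ezh1, 0.020 to 0.30 for Ezh2, -0.15 to 0.058 for Bmi1 and 0.19 to 0.44 for Asxl1. The cause of these changes was not tested. The signal of 7 members lay under the 95th percentile of the negative controls on every array, and what that does to their differences was not tested.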

Other observations

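Genes that DNA methylation silences outside the germ line were near background. Of 12 such genes 11 lay below the negative-control median on every array, and Dppa3, an oocyte and early embryo gene, had groups that did not overlap, at 3.89 to 4.38 in knockout and 4.48 to 5.30 in wild-type cells, all of them below the negative-control median. Imprinted genes had 4 of 12 above 0 and 8 below, with a median difference of -0.038 (-0.010 without knockout replicate 2), and Grb10, an adaptor that dampens growth factor signalling, differed by 0.28 (95% interval -0.0070 to 0.56, limma adjusted p = 0.916). Cell cycle genes had 10 of 15 above 0 and 5 below, with a median of 0.071 (-0.0018 without wild-type replicate 5 and 0.0135 without wild-type replicate 4), and Tyms, which makes thymidylate for DNA synthesis, differed by 0.29 (-0.075 to 0.66, and 0.17 without wild-type replicate 3). Among the germline genes Hormad1 differed by -0.36 and Sycp1 by -0.30 (-0.12 without wild-type replicate 6). Among the imprinted genes Cdkn1c differed by -0.13 and Peg3 by -0.14 (-0.063 without knockout replicate 3). Among the cell cycle genes Mcm2 differed by -0.13 (-0.038 without wild-type replicate 3) and Mcm4 by -0.075 (-0.014 without knockout replicate 4). Among markers of other cells, 6 of 8 B cell genes were below 0 (median -0.26, and -0.11 without wild-type replicate 6). Of the neutrophil and monocyte genes 7 of 8 were above 0, with a median of 0.21 that was 0.028 without knockout replicate 3 and 0.385 without knockout replicate 2. Of the erythroid genes 7 of 8 were above 0 (median 0.12, and 0.24 without wild-type replicate 6). T and NK cell markers had 4 of 7 above 0 (median 0.044, and -0.051 without knockout replicate 2) and stromal and endothelial markers 1 of 6 (median -0.038). No gene of these lists had a limma adjusted p under 0.05.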
